A study of Mus musculus with 931 samples.

Results

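The comparison set α cells, the glucagon-producing cells of the pancreatic islet, against β cells, its insulin-producing cells, in mice at postnatal day 60 (P60). Members were the single-hormone cells of the single-cell count table at P60, 83 α cells and 129 β cells, or 212 of the 917 cells in that table. The α cells came from Gcg-Cre; Rosa-RFP mice of a mixed C57BL/6, CBA/J and C3H background, in which Cre under control of the glucagon gene turns on a red fluorescent protein that stays on afterwards. The β cells came from Ins1-RFP mice of a mixed C57BL/6 and C3H background, whose red protein follows the Ins1 promoter. No other allele and no treatment was named for either group, and because each cell type came from its own mouse line, cell type and strain cannot be told apart. Each group held 5 labelled batches, of 20, 16, 15, 16 and 16 α cells and of 39, 14, 29, 26 and 21 β cells, and in both groups batches 1 and 5 were FACS-sorted and batches 2, 3 and 4 were picked by hand. Reads were summed per batch and the batch was the replicate. The labels name no animal, so the p-values measure the spread between these batches, which may be technical.

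Alpha and beta cells sit side by side in the islet and act in opposition. Glucagon from α cells raises blood glucose, and insulin from β cells lowers it. Both load a peptide hormone into dense-core granules and release it on calcium entry, under the control of metabolism, of channels and of receptors for hormones and transmitters. The hormones and the factors that define each cell type are described here only as a check of the labels, and the results concern the other genes.

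The batches held 17.4 M to 20.2 M gene reads for α cells and 14.4 M to 49.1 M for β cells, with a median of 1180901 and 1213134 reads a cell. The targeted markers went with the labels. Gcg reached 265069, 337960.0, 341099, 475293 and 415332 CPM in α batches 1 to 5, against 0.293, 1.32, 203, 0.131 and 0 CPM in β batches 1 to 5. Ins2 reached 35.6, 114, 201, 26.5 and 168 CPM in α batches 1 to 5, against 431204, 335072, 368006, 390726 and 405432 CPM in β batches 1 to 5. The groups did not overlap for either hormone, but cells were collected by reporters of Gcg or Ins1 and kept as single-hormone cells. Their separation by hormone was thus partly fixed by selection and is no independent check. Of the 5974 Gcg reads in β cells, 5940 were in batch 3, and 5133 of these were in 1 cell that also held 202617 Ins1 reads. Mafa, a β cell factor, had 0 reads in α cells and 89 in β cells, too few to be tested. Endothelial markers summed to 1.91 to 16.6 CPM in α batches and 4.94 to 11.6 CPM in β batches, with 2 of 6, Cdh5 and Kdr, at 0 in both groups. Mesenchymal markers summed to 0 to 12.2 CPM in α batches and 0 to 1.71 CPM in β batches. Duct markers summed to 154 to 272 CPM in α batches and 214 to 331 CPM in β batches, with Cftr at 0 in both. Erythroid markers summed to 1.28 to 14.8 CPM in α batches and 0.916 to 2.27 CPM in β batches, and Schwann cell markers to 0.535 to 13.0 CPM in α batches and 5.13 to 7.64 CPM in β batches. Epsilon cell markers summed to 5.45 to 14.9 CPM in α batches and 9.89 to 30.6 CPM in β batches, and immune markers summed to at most 0.702 CPM in α batches and 1.20 CPM in β batches. PP cell markers summed to 4718 to 11870.0 CPM in α batches and 0.242 to 38.0 CPM in β batches. The δ cell markers summed to 370.0 to 574 CPM in α batches and 32.6 to 65.9 CPM in β batches, with Ghsr, Bhlhe22 and Cckbr at 0 in both. Acinar markers summed to 25.5 to 119 CPM in α batches and 4.47 to 13.4 CPM in β batches. The part of these cells in the results was not tested. The Y-linked gene Ddx3y was present in every batch and Xist stayed at or under 1.66 CPM.

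The cell types differed in how their reads were spread over genes. The 8 islet hormone genes took 36.4, 38.1, 41.5, 48.8 and 46.0% of gene reads in α batches 1 to 5, against 55.6, 50.9, 53.3, 54.7 and 55.2% in β batches. Every α batch was below every β batch, with a mean difference of -11.8 percentage points (exact two-sided permutation test, p = 0.00794, the smallest that 5 against 5 batches can give). When each cell was thinned to 100000 non-hormone reads, the batch medians of genes detected per cell were 5232, 5717.5, 5379, 5850.0 and 5538 in α cells, against 6544, 6935, 6470.0, 6125 and 6376 in β cells. Here too no α batch reached a β batch, and the mean difference of -947 genes had the same exact p of 0.00794. Within collection methods the α minus β difference in hormone share was -14.2 points in sorted and -10.1 points in picked batches, and that in genes detected was -1075 and -861. Spike-in reads were 1.83 to 7.43% of a batch in α cells and 1.60 to 2.39% in β cells, and their part was not tested.

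**Figure D1:**
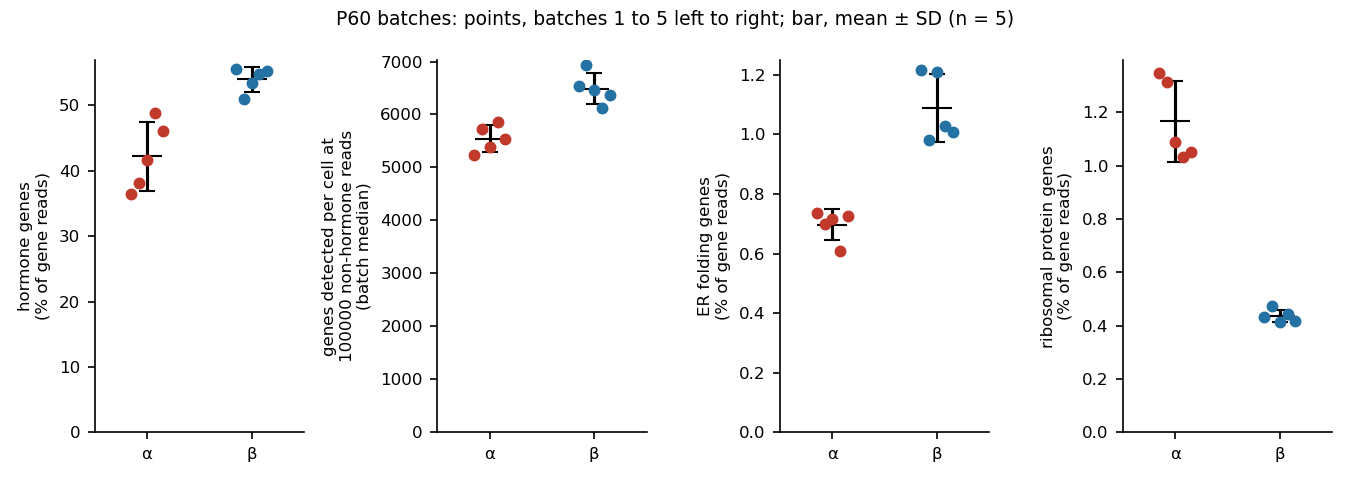
Shares of gene reads (percent) and genes detected per cell, by P60 batch, α left and β right. Points are batches 1 to 5 from left to right, and the bar is the mean ± SD of 5 batches. In each of the 4 panels the α batches and the β batches do not overlap. Hormone genes, genes detected and endoplasmic reticulum folding genes are lower in α cells, and ribosomal protein genes are higher.

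Across 12661 genes tested, 982 (7.76%) were higher and 1122 (8.86%) lower in α than in β cells at an adjusted p under 0.05 (edgeR quasi-likelihood test with Benjamini-Hochberg adjustment), or 16.6% in either direction. The change was more than 2-fold for 708 of the higher and 793 of the lower genes, together 11.9% of genes tested. The α batches lay wholly above the β batches for 7.69% of genes tested, and wholly below for 8.98%. The 15 largest rises and 15 largest falls named below were picked among genes without overlap, so for them its absence is no further result. The median log2 fold change of all genes was 0.02. When each cell had equal weight, as the mean over cells of log2(TPM + 1), the median of all genes moved to 0.14 and the split became 2346 higher against 1157 lower. That fit also scaled reads for gene length, left out the TMM scaling described below and used another test (limma). A shift given below for equal weight per cell can therefore come from any of these changes, which were not tested apart. Counts of list members below are to be read against 7.76% higher and 8.86% lower of all genes tested. With equal weight per cell they are to be read against 2346 higher and 1157 lower of 12661 genes, and medians against 0.14. Levels below are CPM, or counts scaled to the size of the library, with TMM scaling, which adjusts that size for unequal composition. A fold change is α over β, and ± after a CPM value is the SD over the 5 batches of a group. Where a group had no reads, the fold is a lower bound against 3 reads over that group, and its fitted log2 value, which ranks it, is no bound. Reads are not independent molecules, so intervals, floors and these bounds cover counting error only.

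**Figure D2:**
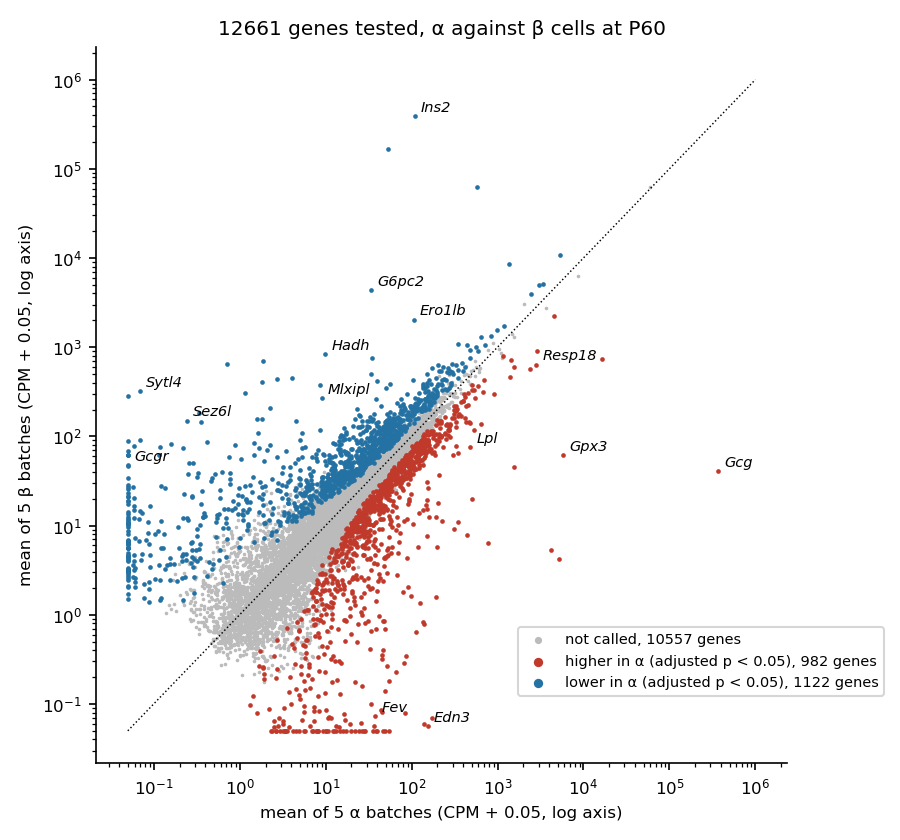
Mean CPM of each of 12661 genes in the 5 α batches (horizontal, log axis) against the 5 β batches (vertical, log axis), each with 0.05 added. Red points are the 982 genes higher in α cells and blue points the 1122 lower, and the dotted line marks equal levels. Genes along the lower and the left edge had no or almost no reads in a cell type.

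More ligand genes rose than fell. Of 27 tested members of a list of 82 secreted peptides and growth factors, 8 rose and 2 fell in α cells (13 and 2 with equal weight per cell), with a median log2 fold change of 0.95 against 0.02 for all genes, of which 7.76% rose and 8.86% fell. Edn3 (chr2:174760619-174784042, GRCm38), a protein-coding gene for the vasoactive peptide endothelin 3, had 183, 138, 109, 191 and 148 CPM in α batches 1 to 5, against 0, 0, 0.0341, 0 and 0 CPM in β batches 1 to 5. All α batches were high and the β batches held a single read. Edn3 was 20827-fold higher (95% counting interval 3737 to 822660.0) in α cells (adjusted p = 3.85e-09), and 71 of 83 α cells and 1 of 129 β cells had a read. Gc, which encodes the vitamin D-binding protein of plasma, had 239, 343, 536, 311 and 313 CPM in α batches 1 to 5, against 71.4, 64.3, 34.7, 83.9 and 67.4 CPM in β batches 1 to 5. It was 5.34-fold higher in α cells (log2 fold change 2.42 ± 0.27 (SE), adjusted p = 8.18e-05), with no overlap. Other members higher in α cells, picked as examples after their values were seen, were Tgfb2, a TGF-β ligand, at 17.0 ± 12.0 against 0.0166 ± 0.0233 CPM (adjusted p = 9e-05), and the chemokine gene Cx3cl1 at 59.9 ± 25.1 against 14.5 ± 3.26 CPM (adjusted p = 0.000736).

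The genes lower in α cells included secreted factors as well. Frzb (chr2:80411970-80447625), a protein-coding gene for a secreted antagonist of Wnt proteins, had 0 CPM in all 5 α batches, against 263, 245, 324, 296 and 278 CPM in β batches 1 to 5. It had no read in any of 83 α cells, which allows a share of cells with a read of up to 3.61% (3 cells), and at least 1 read in all 129 β cells. Frzb was at least 10238-fold lower in α cells (adjusted p = 1.39e-07). The β-defensin gene Defb1, for an antimicrobial peptide, had 10.8, 1.42, 4.90, 2.86 and 6.32 CPM in α batches 1 to 5, against 106, 90.5, 94.1, 144 and 113 CPM in β batches 1 to 5. Defb1 was 23.3-fold lower in α cells (log2 fold change -4.54 ± 0.41 (SE), adjusted p = 1.94e-05). Pdyn, the precursor of dynorphin opioid peptides, had 0.0387, 0, 0, 0 and 0 CPM in α batches 1 to 5, against 19.4, 45.6, 61.0, 8.83 and 1.31 CPM in β batches 1 to 5. Its β batches spread from 1.31 to 61.0 CPM, yet all exceeded the α batches, where 1 read was seen in total. Reads came from 36 of 129 β cells, and Pdyn was 2827-fold lower (95% counting interval 507 to 111684) in α cells (adjusted p = 9.96e-05).

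Receptor genes moved in both directions. Of 36 tested members of a list of 60 G protein-coupled receptors, 8 rose and 12 fell, with a median of -0.05 (0.08, 12 higher and 12 lower, with equal weight per cell). The vasopressin receptor gene Avpr1b had 35.9, 25.1, 47.9, 53.9 and 30.6 CPM in α batches 1 to 5, against 0 CPM in all 5 β batches. The oxytocin receptor gene Oxtr had 51.0, 123, 183, 243 and 97.2 CPM in α batches 1 to 5, against 0.0244, 0.366, 3.31, 0 and 0 CPM in β batches 1 to 5. Neither receptor overlapped between the groups. Avpr1b was at least 1742-fold higher in α cells (adjusted p = 1.08e-05) and Oxtr was 232-fold higher in α cells (log2 fold change 7.86 ± 0.96 (SE), adjusted p = 0.000166). 66 of 83 α cells had an Oxtr read, and in β cells the reads came from 4 of 129, with 69.9% in 1 cell. The somatostatin receptor gene Sstr2 had 68.4, 30.9, 24.8, 7.42 and 11.4 CPM in α batches 1 to 5, against 0 CPM in all 5 β batches. Its α batches spread widely and none was as low as a β batch. Reads came from 30 of 83 α cells and Sstr2 was at least 1287-fold higher in α cells (adjusted p = 0.000276). Ffar4, a receptor for long-chain fatty acids, was also higher, at 39.0 ± 15.2 against 1.39 ± 1.56 CPM (adjusted p = 0.000304), as was Gpr119, a receptor for lipid amides, at 89.5 ± 32.3 against 11.9 ± 7.63 CPM (adjusted p = 0.00205). These and the receptors below without batch values are examples chosen after their values were seen.

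In the other direction stood the glucagon receptor itself. Gcgr had 0 CPM in all 5 α batches, against 65.1, 27.3, 37.8, 55.1 and 50.7 CPM in β batches 1 to 5. It had no read in α cells and reads in 94 of 129 β cells, and was at least 1716-fold lower in α cells (adjusted p = 7.28e-06). The receptors of the incretin hormones were likewise lower, Glp1r at 0.289 ± 0.486 against 182 ± 63.5 CPM (adjusted p = 1.06e-05) and Gipr at 17.4 ± 3.05 against 63.4 ± 9.81 CPM (adjusted p = 3.79e-05). P2ry1, a receptor for ADP, had 0, 0.0527, 0, 0 and 0.0458 CPM in α batches 1 to 5, against 44.5, 77.8, 162, 79.9 and 95.1 CPM in β batches 1 to 5. P2ry1 was 4859-fold lower (95% counting interval 1345 to 40128) in α cells (adjusted p = 1.51e-07). The α batches together held 2 P2ry1 reads. Adora1, the adenosine A1 receptor gene, had 0 CPM in all 5 α batches, against 34.2, 24.2, 34.0, 21.5 and 29.4 CPM in β batches 1 to 5. Gpr158, an orphan-class receptor, had 0 CPM in all 5 α batches, against 38.6, 77.4, 76.0, 67.4 and 48.7 CPM in β batches 1 to 5. Both were without reads in α cells, Adora1 at least 1042-fold lower (adjusted p = 1.09e-05) and Gpr158 at least 2240.2-fold lower (adjusted p = 1.18e-06). The libraries do not mark strand, and 23.1% of the exon bases of P2ry1, 20.1% of Adora1 and 7.36% of Gpr158 overlap a gene on the opposite strand, so a share of their reads is uncertain. Galr1, a galanin receptor, was lower in α cells at 0.977 ± 1.77 against 55.0 ± 9.30 CPM (adjusted p = 0.000849), and so was Adra2a, an α2-adrenergic receptor, at 0.350 ± 0.603 against 12.6 ± 3.96 CPM (adjusted p = 0.00609).

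Receptors and co-receptors of growth factors also moved both ways. Of 45 tested of 64 on the list, 11 rose and 8 fell (median -0.04, and 0.17, 15 higher and 11 lower, with equal weight per cell). Klb, or β-klotho, the co-receptor for endocrine fibroblast growth factors, lay outside that list and had 36.3, 19.2, 24.4, 52.8 and 46.3 CPM in α batches 1 to 5, against 0 CPM in all 5 β batches. Gfra1, the GDNF co-receptor, had 41.3, 45.9, 64.8, 57.0 and 38.5 CPM in α batches 1 to 5, against 0, 0, 0.443, 0 and 0 CPM in β batches 1 to 5. Both were present in every α batch and nearly absent from β cells. Klb was at least 1613-fold higher in α cells (adjusted p = 2.24e-05), Gfra1 was 524-fold higher in α cells (log2 fold change 9.03 ± 0.81 (SE), adjusted p = 1.94e-05), and 1 β cell held all 13 of its β reads. Ptprk, a receptor tyrosine phosphatase, averaged 33.8 ± 6.80 CPM in α cells and 0.0487 ± 0.0690 CPM in β cells and was 584-fold higher in α cells (log2 fold change 9.19 ± 0.67 (SE), adjusted p = 4.86e-06). Ntrk2, the BDNF receptor TrkB, had 26.9, 22.8, 16.7, 34.4 and 17.1 CPM in α batches 1 to 5, against 133, 139, 146, 116 and 98.5 CPM in β batches 1 to 5. Ntrk2 was 5.36-fold lower in α cells (log2 fold change -2.42 ± 0.22 (SE), adjusted p = 2.02e-05). Il1r1, the interleukin 1 receptor, had 195, 151, 165, 161 and 136 CPM in α batches 1 to 5, against 407, 483, 409.6, 437 and 415 CPM in β batches 1 to 5. Its levels were substantial in both cell types, without overlap, and 2.67-fold lower in α cells (log2 fold change -1.41 ± 0.13 (SE), adjusted p = 2.02e-05). The prolactin receptor gene Prlr was lower in α cells at 4.04 ± 4.78 against 451 ± 107 CPM (adjusted p = 0.000412), and the growth hormone receptor gene Ghr at 44.4 ± 11.5 against 219.8 ± 58.3 CPM (adjusted p = 6.6e-05).

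Ion channels differed gene by gene. Of 27 tested of 46 potassium channel genes, 6 rose and 4 fell (median -0.03, and 0.13, 8 higher and 4 lower, with equal weight per cell). Kcnj3, a G protein-gated inward rectifier subunit, had 15.5, 9.38, 20.6, 8.37 and 9.15 CPM in α batches 1 to 5, against 0 CPM in all 5 β batches. Kcnj3 was at least 567-fold higher in α cells (adjusted p = 0.000151). Its exons overlap Gm26794 on the other strand over 31.1% of their bases, and 26.2% of its α reads came from 1 cell. Kcnh6, an ERG-type channel, had 53.8, 87.4, 88.8, 91.6 and 87.4 CPM in α batches 1 to 5, against 28.8, 50.9, 34.3, 26.1 and 29.5 CPM in β batches 1 to 5. The lowest α batch, batch 1, was just above the highest β batch, batch 2, and Kcnh6 was 2.41-fold higher in α cells (log2 fold change 1.27 ± 0.20 (SE), adjusted p = 0.000881). Kcnip1, an accessory subunit of Kv4 channels, had 0, 0.263, 0.0446, 5.86 and 0.915 CPM in α batches 1 to 5, against 91.2, 66.3, 52.3, 93.8 and 120.0 CPM in β batches 1 to 5. Most of its α reads were in batch 4, 81.1% of them in 1 cell, and every β batch was higher, and Kcnip1 was 66.3-fold lower in α cells (log2 fold change -6.05 ± 1.06 (SE), adjusted p = 0.00189). Kcnmb2, a subunit of calcium-activated BK channels, averaged 36.4 ± 11.7 CPM in α cells and 118 ± 17.6 CPM in β cells and was 3.23-fold lower in α cells (log2 fold change -1.69 ± 0.24 (SE), adjusted p = 0.000507). The background potassium channel gene Kcnk3 was higher at 38.9 ± 22.2 against 0.649 ± 0.622 CPM (adjusted p = 0.000936).

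Of 33 tested of 40 genes for calcium and sodium channels and calcium pumps, 7 rose and 8 fell (median -0.04, and 0.23, 10 higher and 8 lower, with equal weight per cell). The pumps that fill the endoplasmic reticulum with calcium were lower in α cells. Atp2a2 (SERCA2) had 53.4, 73.5, 45.3, 69.2 and 42.5 CPM in α batches 1 to 5, against 358, 502, 373, 396 and 325 CPM in β batches 1 to 5. Atp2a3 (SERCA3) had 102, 199, 204, 156 and 201 CPM in α batches 1 to 5, against 470.0, 729, 628, 601 and 499 CPM in β batches 1 to 5. Itpr1, an inositol trisphosphate receptor that lets this calcium out, was instead on the α side, with 195, 144, 146, 147 and 124 CPM in α batches 1 to 5, against 17.7, 12.3, 13.1, 16.7 and 17.1 CPM in β batches 1 to 5. None of the 3 genes overlapped between groups, Atp2a2 being 6.91-fold lower in α cells (log2 fold change -2.79 ± 0.17 (SE), adjusted p = 1.1e-06), Atp2a3 3.38-fold lower in α cells (log2 fold change -1.76 ± 0.18 (SE), adjusted p = 4.89e-05) and Itpr1 9.85-fold higher in α cells (log2 fold change 3.30 ± 0.17 (SE), adjusted p = 2.64e-07). Scn2b, a sodium channel β subunit, had 18.8, 7.06, 10.7, 2.00 and 12.0 CPM in α batches 1 to 5, against 1.44, 0.147, 0.0682, 0.131 and 3.05 CPM in β batches 1 to 5. Its α batch 4 lay below β batch 5, so the groups overlapped, and Scn2b was 22.0-fold higher in α cells (log2 fold change 4.46 ± 0.83 (SE), adjusted p = 0.00271). Fitted with the batches of every stage it had a log2 fold change of 3.58 that no longer passed the test. The sodium channel gene Scn3a was higher at 44.6 ± 11.9 against 6.12 ± 5.61 CPM (adjusted p = 0.012), and Trpm5, a calcium-activated cation channel gene, was lower at 0.363 ± 0.770 against 86.7 ± 20.8 CPM (adjusted p = 0.00011). Among ionotropic receptors, 3 of 12 tested members rose and 3 fell, of 34 on the list (median 0.51, and 0.34, 5 higher and 3 lower, with equal weight per cell). The AMPA-type glutamate receptor genes were on the α side, with Gria2 at 102, 147, 231, 179 and 145 CPM in α batches 1 to 5, against 9.75, 19.2, 3.89, 22.8 and 7.31 CPM in β batches 1 to 5. Gria2 was 13.0-fold higher in α cells (log2 fold change 3.70 ± 0.40 (SE), adjusted p = 7.43e-05), without overlap, and Gria3 averaged 57.5 ± 22.4 CPM in α cells and 4.88 ± 5.05 CPM in β cells (adjusted p = 0.0179). The Gria3 call was lost in sorted batches alone and in picked batches alone, at log2 fold changes of 4.48 and 2.90. The obligatory NMDA receptor subunit gene Grin1 was on the β side, with 0, 0.263, 0, 0.150 and 5.95 CPM in α batches 1 to 5, against 12.1, 25.5, 14.5, 16.2 and 24.1 CPM in β batches 1 to 5. Nearly all its α reads were in batch 5, with 84.8% in 1 cell, and Grin1 was 33.2-fold lower in α cells (log2 fold change -5.05 ± 1.38 (SE), adjusted p = 0.0264). The call was lost without α batch 2, without α batch 4 or without β batch 2, at log2 fold changes of -4.76, -4.58 and -4.81, and without the method covariate, at -3.85. Chrnb2, a nicotinic receptor subunit, was lower in α cells with overlapping batches (log2 fold change -1.05 ± 0.30 (SE), adjusted p = 0.0312) and lost its call when any of 7 batches was left out. Genes on the other strand cover 13.5% of the exon bases of Grin1 and 16.3% of those of Chrnb2, so their reads are uncertain.

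Genes of the release machinery moved both ways, and the balance of calls turned in the fit with equal weight per cell, which also changed scaling and test. In that fit the calls of all genes turned as well, to 2346 higher and 1157 lower. Of 63 tested of 76 exocytosis genes, 8 rose and 15 fell (median -0.09, and 0.11, 19 higher and 11 lower, with equal weight per cell). Sytl4 (chrX:133936385-133981812), whose product granuphilin ties insulin granules to the plasma membrane through Rab27, had 0, 0.0527, 0.0446, 0 and 0 CPM in α batches 1 to 5, against 273, 333, 412, 295 and 280.0 CPM in β batches 1 to 5. All 129 β cells had Sytl4 reads, against 2 of 83 α cells with 1 read each, and Sytl4 was 17201-fold lower (95% counting interval 4761 to 142038) in α cells (adjusted p = 9.99e-10). Rims3, a presynaptic active-zone protein, had 0, 0, 0.0446, 0 and 0 CPM in α batches 1 to 5, against 60.3, 64.4, 52.6, 104 and 110.3 CPM in β batches 1 to 5. Rims3 was 8344-fold lower (95% counting interval 1497 to 329599) in α cells (adjusted p = 7.5e-08). Other synaptotagmin-like genes stood the other way. Sytl2 had 6.11, 12.7, 5.17, 9.67 and 16.4 CPM in α batches 1 to 5, against 0 CPM in all 5 β batches. Sytl5 had 28.9, 43.9, 53.0, 43.1 and 38.9 CPM in α batches 1 to 5, against 12.3, 12.8, 14.8, 18.8 and 8.91 CPM in β batches 1 to 5. Sytl2 was at least 451-fold higher in α cells (adjusted p = 0.000276) and Sytl5 was 3.08-fold higher in α cells (log2 fold change 1.62 ± 0.20 (SE), adjusted p = 0.000194), neither with overlap. Rab27b, a Rab27 isoform, was higher in α cells at 7.25 ± 3.18 against 0.0413 ± 0.0289 CPM (adjusted p = 0.000114), and Rab3d was lower at 42.9 ± 8.51 against 119 ± 9.19 CPM (adjusted p = 4.67e-05).

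Granule cargo and its processing enzymes were more often lower in α cells. Of 36 tested of 43 genes on the granule list, 16 fell and 6 rose, with a median of -0.32. With equal weight per cell the median was 0.04 (10 lower, 12 higher), still below the 0.14 of all genes in that fit. The granins fell, Chga to 5373 ± 632 against 10853 ± 265 CPM (adjusted p = 0.000379) and Scg2 to 1351 ± 643 against 8616 ± 2046 CPM (adjusted p = 0.000316) in α against β cells. The prohormone convertases divided, Pcsk1 falling to 1.77 ± 3.89 against 406 ± 41.5 CPM (adjusted p = 0.00071) while Pcsk2, the convertase that makes glucagon, stood at 4533 ± 403 against 2208 ± 307 CPM (adjusted p = 0.000393). Resp18, an endocrine granule protein, had 2662, 2726, 2930.3, 2289 and 3399.9 CPM in α batches 1 to 5, against 638, 593, 699, 613 and 648 CPM in β batches 1 to 5. Tmem27, or collectrin, had 1725, 2330.3, 2466, 2946 and 2356 CPM in α batches 1 to 5, against 590.2, 507, 464, 629.7 and 641 CPM in β batches 1 to 5. Every α batch exceeded every β batch for both, with Resp18 4.38-fold higher in α cells (log2 fold change 2.13 ± 0.13 (SE), adjusted p = 1.49e-06) and Tmem27 4.16-fold higher in α cells (log2 fold change 2.06 ± 0.17 (SE), adjusted p = 1.07e-05). Th, tyrosine hydroxylase, the rate-limiting enzyme of catecholamine synthesis, had 0 CPM in all 5 α batches, against 75.2, 104, 47.9, 39.9 and 45.4 CPM in β batches 1 to 5. Th was at least 2274-fold lower in α cells (adjusted p = 1.64e-05), with reads in 85 of 129 β cells. Sez6l, a membrane protein, had 0.966, 0, 0, 0 and 0 CPM in α batches 1 to 5, against 151, 152, 160.4, 145 and 143 CPM in β batches 1 to 5. All its α reads came from 1 cell of batch 1, and Sez6l was 748-fold lower in α cells (log2 fold change -9.55 ± 0.78 (SE), adjusted p = 1.09e-05). Bace2, a β-site protease, was lower at 2.67 ± 4.60 against 439 ± 99.9 CPM (adjusted p = 0.000263).

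A set of 4 genes on the granule list, among them the enzyme gene Th, carries the full cAMP response element TGACGTCA in the 250 bases before the start. This set is shown because all 4 were lower in α cells. The motif is its own reverse complement and was found on either strand in 478 of 27025 mouse promoters in the table (1.77%) and in 4 of the 33 members of the granule list in it (12.1%). The sequences are from RefSeq, GRCm38.p6, 5′ to 3′ on the strand of the gene, with the motif in capitals, at chr2:132781530-132781617 (+ strand) for Chgb, chr1:79440047-79440134 (- strand) for Scg2, chr13:75089739-75089826 (+ strand) for Pcsk1 and chr7:142899996-142900080 (- strand) for Th. A match describes the letters and is not a site of binding. Of the 36 genes of this list tested 16 were lower, against 8.86% of all genes tested, and a link between the motif and the fall was not tested.
Chgb: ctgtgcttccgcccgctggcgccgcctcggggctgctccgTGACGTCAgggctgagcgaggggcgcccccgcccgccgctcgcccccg
Scg2: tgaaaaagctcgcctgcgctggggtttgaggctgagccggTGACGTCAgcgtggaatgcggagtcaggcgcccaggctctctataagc
Pcsk1: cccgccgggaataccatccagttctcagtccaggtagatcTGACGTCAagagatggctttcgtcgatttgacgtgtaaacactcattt
Th: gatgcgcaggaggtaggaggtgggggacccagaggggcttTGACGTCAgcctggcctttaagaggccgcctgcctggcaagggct

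Chgb, the granin chromogranin B, stood at 598 ± 87.0 against 895 ± 146 CPM (adjusted p = 0.0199), the smallest change of the 4, and Th had no α read.

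Genes for protein folding in the endoplasmic reticulum (ER) formed the group with the largest share of falls in the summed counts. This machinery folds secreted proteins, forms their disulfide bonds and removes failed ones, and its genes share an ER stress response element in many promoters. Of 43 tested of 44 listed, 32 fell and 0 rose, with a median of -0.90. Without any single batch 27 to 32 fell. The median stayed negative, at -0.27, with equal weight per cell, where 13 fell and 4 rose. Within sorted batches 6 and within picked batches 15 passed the test as lower, and 0 as higher. The listed genes took 0.735, 0.698, 0.716, 0.608 and 0.727% of gene reads in α batches 1 to 5, against 1.22, 0.982, 1.21, 1.03 and 1.01% in β batches, without overlap. Hormone reads are in that total and took the larger share in β cells, and their part in these percentages was not tested. In the fit of counts, which is TMM-scaled with or without hormone genes, 32 fell in both cases.

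The element, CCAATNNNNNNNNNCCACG, was found on either strand of the 250 bases before the start in 35 of 27025 promoters (0.13%) and in 10 of the 38 ER folding members in the table (26.3%). Of these 10, 8 were lower in α cells and Hsp90b1 and Creld2 did not pass the test. That is near the share of the whole list, of which 32 of 43 tested (74.4%) were lower, against 8.86% of all genes tested. A link between the element and the fall was not tested. Windows around it are shown for 5 of the lower genes, from RefSeq, GRCm38.p6, 5′ to 3′ on the strand of the gene, with the element's ends in capitals (CGTGG and ATTGG where it lies on the other strand). They lie at chr2:34771985-34772083 (+ strand) for Hspa5, chr8:84847035-84847133 (- strand) for Calr, chr14:118937787-118937885 (+ strand) for Dnajc3, chr10:75893202-75893300 (+ strand) for Derl3 and chr13:12565642-12565740 (+ strand) for Ero1lb, which RefSeq lists as Ero1b.
Hspa5: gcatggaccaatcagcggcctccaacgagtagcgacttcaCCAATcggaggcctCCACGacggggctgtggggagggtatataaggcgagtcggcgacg
Calr: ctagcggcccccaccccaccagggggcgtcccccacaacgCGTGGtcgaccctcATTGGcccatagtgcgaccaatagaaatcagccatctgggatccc
Dnajc3: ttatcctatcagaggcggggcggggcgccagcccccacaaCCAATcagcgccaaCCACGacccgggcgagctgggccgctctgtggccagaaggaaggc
Derl3: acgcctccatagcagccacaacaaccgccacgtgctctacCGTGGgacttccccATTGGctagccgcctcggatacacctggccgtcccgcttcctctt
Ero1lb: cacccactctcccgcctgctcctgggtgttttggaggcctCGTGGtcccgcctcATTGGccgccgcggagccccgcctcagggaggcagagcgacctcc

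Ero1lb (chr13:12565874-12611396), an oxidase that drives disulfide bond formation and is abundant in β cells, had 95.3, 99.2, 63.5, 152 and 120.3 CPM in α batches 1 to 5, against 2379, 1852, 2426, 1792 and 1734 CPM in β batches 1 to 5. All β batches were far above all α batches, and Ero1lb was 19.2-fold lower in α cells (log2 fold change -4.26 ± 0.25 (SE), adjusted p = 7.67e-07), with reads in 76 of 83 α cells and 129 of 129 β cells. Nucb2, a calcium-binding protein that is the precursor of nesfatin, had 28.7, 45.5, 43.3, 44.4 and 29.4 CPM in α batches 1 to 5, against 143, 148, 139, 132 and 149 CPM in β batches 1 to 5. Nucb2 was 3.79-fold lower in α cells (log2 fold change -1.92 ± 0.15 (SE), adjusted p = 7.8e-06). The changes in the general chaperones were smaller. Hspa5 (BiP) stood at 566 ± 107 against 1010.0 ± 254 CPM (adjusted p = 0.0114) in α against β cells, Calr (calreticulin) at 282 ± 65.2 against 543 ± 77.1 CPM (adjusted p = 0.00241), P4hb, a protein disulfide isomerase, at 474 ± 60.4 against 929 ± 67.5 CPM (adjusted p = 0.000198), and Dnajc3, a co-chaperone, at 142 ± 20.4 against 314 ± 56.9 CPM (adjusted p = 0.000371). Among sensors and regulators Atf6 stood at 33.1 ± 9.23 against 73.0 ± 10.8 CPM (adjusted p = 0.00212) and Wfs1, the wolframin gene, at 17.3 ± 6.15 against 111 ± 14.9 CPM (adjusted p = 1.49e-05). Xbp1 at 275 ± 53.1 against 373 ± 66.1 CPM (adjusted p = 0.115) and Ern1, the sensor IRE1α, at 47.1 ± 12.0 against 33.1 ± 7.78 CPM (adjusted p = 0.136) did not pass the test.

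Ribosomal protein genes went the opposite way. Of 58 listed and tested, 56 rose and 0 fell, with a median of 1.05 (1.90, 58 higher and 0 lower, with equal weight per cell), and 55 to 57 rose without any single batch. They took 1.35, 1.31, 1.09, 1.03 and 1.05% of gene reads in α batches 1 to 5, against 0.433, 0.472, 0.414, 0.442 and 0.417% in β batches. The lowest α batch held more than every β batch. These genes have many near-identical pseudogene copies, and how such reads were assigned is not given in the sources used here, so single members are not named. Within sorted batches 2 and within picked batches 52 passed as higher. Genes of oxidative phosphorylation showed 10 rises and 4 falls among 75 tested (median 0.14), or 18.7% called, near the 16.6% of all genes tested. With equal weight per cell the count became 49 and 1, where all genes gave 2346 higher and 1157 lower. Cox7c, a cytochrome oxidase subunit, averaged 67.2 ± 8.15 CPM in α cells and 37.1 ± 4.45 CPM in β cells, and Ndufa6 of complex I averaged 139.6 ± 26.3 CPM in α cells and 77.9 ± 5.77 CPM in β cells. Both were higher (adjusted p = 0.0016 and 0.00138). Cox5a, another cytochrome oxidase subunit, was lower at 9.62 ± 2.25 against 21.3 ± 1.77 CPM (adjusted p = 0.00828), with 12.8% of its exon bases under a gene on the other strand.

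**Figure D3:**
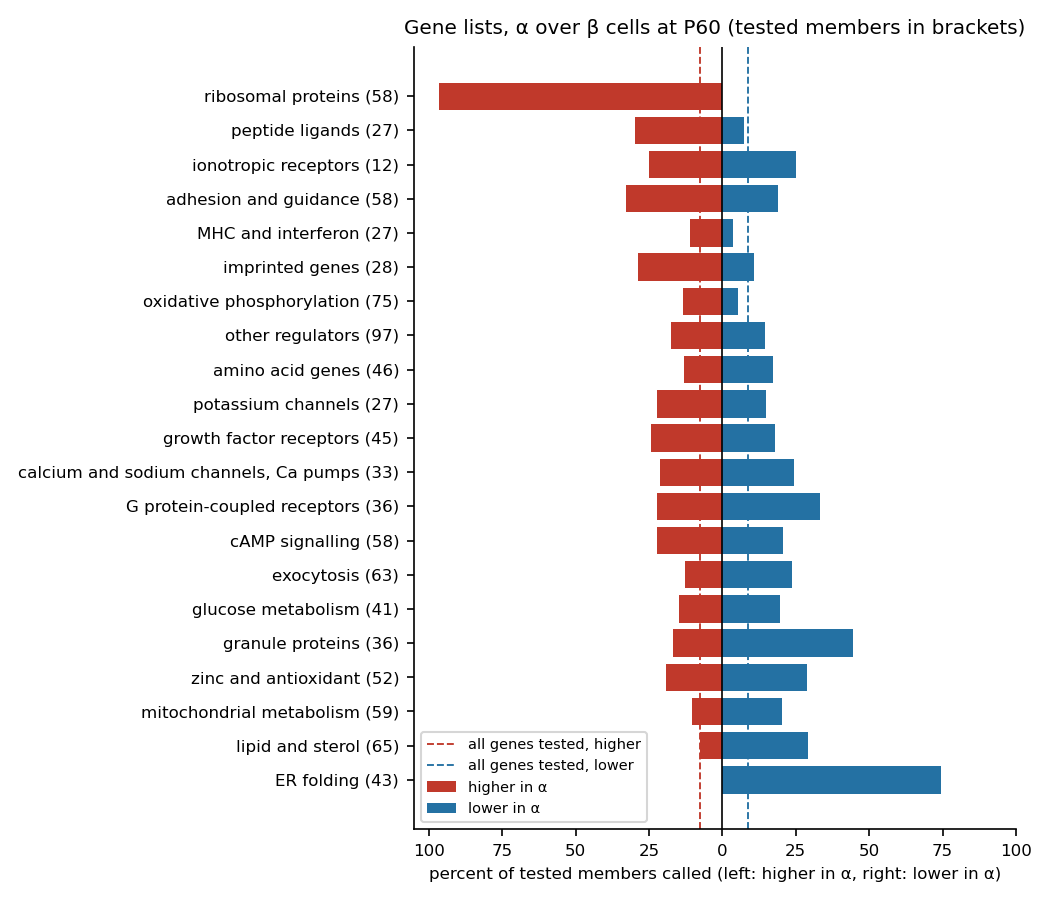
Percent of the tested members of each gene list called higher (left, red) or lower (right, blue) in α than in β cells at an adjusted p under 0.05, with the number tested in brackets. Dashed lines mark 7.76% and 8.86%, the shares of all genes tested. Lists are sorted by their median log2 fold change, with ribosomal proteins at the top (56 of 58 higher) and ER folding at the bottom (32 of 43 lower).

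Carbohydrate metabolism differed through few genes with large changes. Of 41 tested of 55 on the list, 6 rose and 8 fell (median -0.10, and 0.01, 9 higher and 5 lower, with equal weight per cell). Fbp1, fructose bisphosphatase of gluconeogenesis, had 23.9, 31.1, 36.7, 53.5 and 52.3 CPM in α batches 1 to 5, against 0 CPM in all 5 β batches. Hk1, a high-affinity hexokinase, had 10.2, 20.3, 28.6, 32.6 and 30.6 CPM in α batches 1 to 5, against 0 CPM in all 5 β batches. Neither had a read in any β cell. Fbp1 was at least 1779.6-fold higher in α cells (adjusted p = 1.38e-05) and Hk1 was at least 1102-fold higher in α cells (adjusted p = 4.49e-05), and a read was found in 49 and 38 of 83 α cells. G6pc2, the islet glucose-6-phosphatase that opposes glucokinase and a marker used for β cells, had 7.81, 74.6, 34.3, 44.5 and 7.05 CPM in α batches 1 to 5, against 2778, 4045, 3641, 5641 and 5739 CPM in β batches 1 to 5. G6pc2 was 177-fold lower in α cells (log2 fold change -7.47 ± 0.61 (SE), adjusted p = 1.09e-05). Pkm, pyruvate kinase, averaged 269 ± 48.3 CPM in α cells and 587 ± 31.6 CPM in β cells and was 2.19-fold lower in α cells (log2 fold change -1.13 ± 0.13 (SE), adjusted p = 0.000128), a call lost with equal weight per cell. It shares 15.3% of its exon bases with Gm49759 on the same strand.

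In mitochondrial metabolism 6 of 59 tested genes rose and 12 fell, of 62 listed (median -0.33). With equal weight per cell the median was 0.05 (9 higher and 9 lower), still below the 0.14 of all genes in that fit. Pdk4, a kinase that switches off pyruvate dehydrogenase, had 179, 143, 139, 205 and 203 CPM in α batches 1 to 5, against 0.0489, 0, 0, 0 and 0.0484 CPM in β batches 1 to 5. It had 3 reads in β cells in all and was 7839-fold higher (95% counting interval 2682 to 38015) in α cells (adjusted p = 3.49e-09), with reads in 76 of 83 α cells. Pcx, pyruvate carboxylase, the alternative entry of pyruvate, had 7.58, 28.2, 15.7, 26.3 and 25.0 CPM in α batches 1 to 5, against 94.0, 149.6, 169, 126 and 115 CPM in β batches 1 to 5. Hadh, an enzyme of fatty acid β-oxidation that also restrains glutamate dehydrogenase, had 17.4, 10.8, 4.68, 3.31 and 13.3 CPM in α batches 1 to 5, against 822, 898, 918, 792 and 757 CPM in β batches 1 to 5. The groups lay apart for both, with Pcx 6.38-fold lower in α cells (log2 fold change -2.67 ± 0.30 (SE), adjusted p = 8.38e-05) and Hadh 92.7-fold lower in α cells (log2 fold change -6.53 ± 0.41 (SE), adjusted p = 1.48e-06). Of the Hadh reads in α cells, 35.6% came from 1 cell. Glud1, glutamate dehydrogenase, averaged 145 ± 35.9 CPM in α cells and 69.4 ± 2.25 CPM in β cells and was 2.08-fold higher in α cells (log2 fold change 1.06 ± 0.17 (SE), adjusted p = 0.000894).

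Amino acid genes counted 6 rises and 8 falls among 46 tested of 68 (median 0.07, and 0.11, 11 higher and 7 lower, with equal weight per cell). Slc38a5, a glutamine transporter used as an α cell marker here, had 80.4, 158, 82.3, 235 and 120.2 CPM in α batches 1 to 5, against 1.66, 0.0733, 0.478, 1.05 and 0.678 CPM in β batches 1 to 5. It was 157-fold higher in α cells (log2 fold change 7.29 ± 0.57 (SE), adjusted p = 7.96e-06), with every α batch above every β batch. Arg1, arginase, was higher at 85.9 ± 50.1 against 0.293 ± 0.415 CPM (adjusted p = 0.00011), and so was the cationic amino acid transporter gene Slc7a2 at 634 ± 124 against 136 ± 34.9 CPM (adjusted p = 2.02e-05). The neutral amino acid transporter gene Slc6a19 had 0 CPM in all 5 α batches, against 29.0, 22.1, 7.71, 15.4 and 28.8 CPM in β batches 1 to 5. It was at least 749-fold lower in α cells (adjusted p = 5.33e-05), with reads in 53 of 129 β cells. The taurine transporter gene Slc6a6 averaged 122 ± 8.30 CPM in α cells and 201 ± 16.3 CPM in β cells and was 1.64-fold lower in α cells (log2 fold change -0.72 ± 0.11 (SE), adjusted p = 0.00093), a call lost with equal weight per cell. Its mean deposited TPM went the other way, at 30.5 in α and 28.0 in β cells.

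More lipid and sterol genes fell than rose. Of all genes tested, 8.86% fell and 7.76% rose. Of 65 tested of 72 on this list, 19 fell and 5 rose (median -0.69, and -0.34, 5 higher and 20 lower, with equal weight per cell), and 13 to 19 fell without any single batch. Sqle, the squalene epoxidase of cholesterol synthesis, was among them at 29.8 ± 11.8 against 119 ± 11.6 CPM (adjusted p = 0.000457). Acly, which makes acetyl-CoA for lipid synthesis, had 233, 341, 370.0, 376 and 410.3 CPM in α batches 1 to 5, against 1086, 1242, 1267, 1013 and 871 CPM in β batches 1 to 5. Elovl5, a fatty acid elongase, had 25.6, 33.6, 21.5, 16.7 and 36.4 CPM in α batches 1 to 5, against 118, 181, 182, 130.3 and 142 CPM in β batches 1 to 5. No α batch reached a β batch, with Acly 3.16-fold lower in α cells (log2 fold change -1.66 ± 0.16 (SE), adjusted p = 3.68e-05) and Elovl5 5.63-fold lower in α cells (log2 fold change -2.49 ± 0.24 (SE), adjusted p = 2.92e-05). Lpl, lipoprotein lipase, stood against this direction, with 471, 474, 616, 434 and 398 CPM in α batches 1 to 5, against 61.6, 66.3, 83.2, 60.9 and 107 CPM in β batches 1 to 5. It was 6.33-fold higher in α cells (log2 fold change 2.66 ± 0.20 (SE), adjusted p = 5.21e-06). Ugt8a, a galactosyltransferase of glycolipid synthesis, averaged 19.1 ± 12.7 CPM in α cells and 0.00969 ± 0.0217 CPM in β cells and was 2549-fold higher (95% counting interval 457 to 100722) in α cells (adjusted p = 3.19e-05), with reads in 23 of 83 α cells.

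Zinc and antioxidant genes held 10 rises and 15 falls among 52 tested of 63 (median -0.32, and -0.02, 12 higher and 10 lower, with equal weight per cell). Gpx3 (chr11:54902453-54910377), a secreted glutathione peroxidase, had 4108, 5051, 5335, 8218 and 6284 CPM in α batches 1 to 5, against 121, 50.9, 77.9, 9.52 and 47.9 CPM in β batches 1 to 5. The lowest α batch was far above the highest β batch, and Gpx3 was 98.4-fold higher in α cells (log2 fold change 6.62 ± 0.60 (SE), adjusted p = 2.1e-05), with reads in 83 of 83 α cells and 67 of 129 β cells. The zinc transporter gene Slc39a11 averaged 46.2 ± 12.4 CPM in α cells and 11.9 ± 4.05 CPM in β cells and was 3.92-fold higher in α cells (log2 fold change 1.97 ± 0.24 (SE), adjusted p = 0.000166). Gstm1, a glutathione transferase, had 8.70, 5.95, 4.95, 3.81 and 12.4 CPM in α batches 1 to 5, against 40.3, 30.1, 50.2, 34.8 and 51.4 CPM in β batches 1 to 5. It was 6.16-fold lower in α cells (log2 fold change -2.62 ± 0.28 (SE), adjusted p = 5.91e-05), without overlap. Ftl1, the ferritin light chain, averaged 149 ± 32.6 CPM in α cells and 496 ± 32.0 CPM in β cells and was 3.33-fold lower in α cells (log2 fold change -1.74 ± 0.14 (SE), adjusted p = 1.09e-05). Its reads are uncertain because a locus on the other strand covers 26.5% of its exon bases. The metallothionein genes were lower too, Mt1 at 50.9 ± 40.6 against 346 ± 175 CPM (adjusted p = 0.000695) and Mt2 at 12.1 ± 10.1 against 83.5 ± 52.7 CPM (adjusted p = 0.00096).

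Among 97 tested regulators of transcription outside the identity factors (130 listed), 17 rose and 14 fell (median 0.12, and 0.14, 32 higher and 15 lower, with equal weight per cell). Fev (chr1:74881509-74885419), the ETS factor Pet1 of serotonin neurons, had 36.6, 46.7, 42.9, 19.6 and 42.2 CPM in α batches 1 to 5, against 0, 0, 0.0682, 0 and 0.0484 CPM in β batches 1 to 5. Reads came from 75 of 83 α cells and 2 of 129 β cells, and Fev was 1697-fold higher (95% counting interval 580.2 to 8231) in α cells (adjusted p = 1.1e-06). Smarca1, a chromatin remodeller, had 90.6, 72.5, 117, 174 and 139 CPM in α batches 1 to 5, against 4.86, 4.47, 6.31, 6.54 and 6.20 CPM in β batches 1 to 5. It was 20.8-fold higher in α cells (log2 fold change 4.38 ± 0.27 (SE), adjusted p = 1.17e-06), and every α batch was above every β batch. Etv1, another ETS factor, was at 315 ± 45.6 against 9.05 ± 5.55 CPM (adjusted p = 7.07e-06). Mlxipl, which encodes the glucose-responsive factor ChREBP, had 10.6, 5.01, 6.51, 6.11 and 16.6 CPM in α batches 1 to 5, against 311, 280.0, 258, 242 and 245 CPM in β batches 1 to 5. It was 32.3-fold lower in α cells (log2 fold change -5.01 ± 0.26 (SE), adjusted p = 3.06e-07). Ovol2, a zinc-finger factor of epithelia, had 0 CPM in all 5 α batches, against 14.0, 10.8, 10.4, 14.0 and 13.6 CPM in β batches 1 to 5. It was at least 457-fold lower in α cells (adjusted p = 8.38e-05), with 17.0% of its exon bases under a gene on the other strand, so its reads are uncertain.

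Imprinted genes, expressed mainly from the copy of a single parent, included 8 that rose and 3 that fell among 28 tested of 35 (median 0.18, and 0.61, 13 higher and 3 lower, with equal weight per cell). Sgce, ε-sarcoglycan, had 22.1, 33.5, 54.2, 57.8 and 53.0 CPM in α batches 1 to 5, against 0.0733, 0.0733, 0.0341, 0 and 0 CPM in β batches 1 to 5. Grb10, an adaptor that dampens insulin receptor signalling, had 72.7, 85.8, 82.1, 103 and 96.4 CPM in α batches 1 to 5, against 5.30, 2.86, 7.13, 4.48 and 1.79 CPM in β batches 1 to 5. Both were higher in α cells without overlap, Sgce 1042-fold higher in α cells (log2 fold change 10.03 ± 0.58 (SE), adjusted p = 8.41e-07) and Grb10 20.3-fold higher in α cells (log2 fold change 4.35 ± 0.34 (SE), adjusted p = 7.22e-06). Rasgrf1, a Ras exchange factor, had 0.116, 0.158, 0.312, 0.952 and 0 CPM in α batches 1 to 5, against 142, 160.0, 133, 142 and 147 CPM in β batches 1 to 5. It was 499-fold lower in α cells (log2 fold change -8.96 ± 0.54 (SE), adjusted p = 1.1e-06). Blcap averaged 19.0 ± 5.58 CPM in α cells and 59.0 ± 6.65 CPM in β cells and was 3.14-fold lower in α cells (log2 fold change -1.65 ± 0.22 (SE), adjusted p = 0.000286). In cAMP and G protein signalling 13 genes rose and 12 fell among 58 tested of 74 (median -0.09, and 0.15, 18 higher and 9 lower, with equal weight per cell). Gnas, which encodes the stimulatory G protein α subunit and lies in an imprinted cluster, had 97.9, 92.7, 62.1, 60.8 and 54.6 CPM in α batches 1 to 5, against 7.40, 7.25, 7.71, 12.2 and 6.25 CPM in β batches 1 to 5. It was 9.07-fold higher in α cells (log2 fold change 3.18 ± 0.26 (SE), adjusted p = 1.04e-05), without overlap, and the antisense gene Nespas covers 8.83% and Gm20721 13.1% of its exon bases, so some of its reads are uncertain. Gng12, a G protein γ subunit, had 16.2, 11.5, 56.7, 34.9 and 51.2 CPM in α batches 1 to 5, against 477, 409, 642, 468 and 501 CPM in β batches 1 to 5. Pde5a, the cGMP phosphodiesterase, had 0.580, 5.90, 0.401, 0.351 and 0.687 CPM in α batches 1 to 5, against 53.5, 86.1, 107, 147 and 148 CPM in β batches 1 to 5. Both were lower, Gng12 14.6-fold lower in α cells (log2 fold change -3.87 ± 0.42 (SE), adjusted p = 7.95e-05) and Pde5a 76.8-fold lower in α cells (log2 fold change -6.26 ± 0.78 (SE), adjusted p = 0.000189).

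Adhesion and guidance genes were called more often as higher than as lower, 19 and 11 of 58 tested of 101 (median 0.35, and 0.24, 23 higher and 14 lower, with equal weight per cell). Cd9, a tetraspanin, had 34.0, 26.0, 21.4, 19.2 and 28.2 CPM in α batches 1 to 5, against 1.20, 0.879, 1.13, 0.916 and 0.969 CPM in β batches 1 to 5. Dpp10, an accessory protein of Kv4 channels, averaged 52.1 ± 10.1 CPM in α cells and 4.48 ± 0.834 CPM in β cells. Cd9 was 24.8-fold higher in α cells (log2 fold change 4.63 ± 0.30 (SE), adjusted p = 1.87e-06) and Dpp10 11.7-fold higher in α cells (log2 fold change 3.55 ± 0.23 (SE), adjusted p = 2.36e-06). A gene on the other strand covers 10.7% of the exon bases of Cd9. The contactin gene Cntn1 had 0.734, 0.685, 0.936, 7.12 and 0.549 CPM in α batches 1 to 5, against 40.1, 120.3, 55.9, 71.2 and 66.5 CPM in β batches 1 to 5. Cntnap2, a contactin-associated protein, had 0, 0.211, 0, 0 and 0.961 CPM in α batches 1 to 5, against 50.2, 61.4, 71.9, 27.1 and 39.0 CPM in β batches 1 to 5. Cntn1 was 41.3-fold lower in α cells (log2 fold change -5.37 ± 0.67 (SE), adjusted p = 0.000195) and Cntnap2 233-fold lower in α cells (log2 fold change -7.87 ± 0.92 (SE), adjusted p = 0.000121). Of the Cntnap2 reads in α cells, 84.0% came from 1 cell. Of 27 tested MHC and interferon genes (37 listed), 3 rose and 1 fell, 14.8% against 16.6% of all genes tested, and with equal weight per cell 8 rose and 0 fell. Ly6e, an interferon-inducible gene, averaged 148 ± 23.2 CPM in α cells and 84.7 ± 21.6 CPM in β cells and Ifitm2, another, averaged 54.9 ± 5.34 CPM in α cells and 25.8 ± 4.86 CPM in β cells, both higher (adjusted p = 0.00707 and 0.000849), Ifitm2 sharing 40.9% of its exon bases with Gm45717. Tapbp, the MHC chaperone tapasin, averaged 101 ± 41.0 CPM in α cells and 174 ± 26.1 CPM in β cells (log2 fold change -0.86 ± 0.24 (SE), adjusted p = 0.0317), with overlapping batches and a call lost when any of 6 batches was left out. The mean deposited TPM of Tapbp went the other way, at 54.7 in α and 52.0 in β cells. Gm19412 on the other strand covers 24.9% of its exon bases, so its reads are uncertain.

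Some of the largest changes lay outside these lists. Higd1a (chr9:121848563-121858362), a small protein of the inner mitochondrial membrane induced by hypoxia, had 69.9, 191, 144, 135 and 159 CPM in α batches 1 to 5, against 0.0489, 0, 0, 0 and 0 CPM in β batches 1 to 5. All α batches were high, and 2 reads were seen in β cells. Higd1a was 9177-fold higher (95% counting interval 2540.1 to 75787) in α cells (adjusted p = 4.65e-08), with reads in 81 of 83 α cells, and Gm47112 on the other strand covers 22.5% of its exon bases. Egflam, the matrix protein pikachurin, had 81.6, 33.6, 68.5, 24.5 and 25.8 CPM in α batches 1 to 5, against 0 CPM in all 5 β batches. Tspan12, a tetraspanin of Norrin and Frizzled signalling, had 57.8, 84.8, 118, 73.2 and 81.5 CPM in α batches 1 to 5, against 0.0733, 0.0733, 0, 0 and 0 CPM in β batches 1 to 5. Adamts18, a secreted metalloprotease, had 16.0, 49.1, 45.3, 47.4 and 22.5 CPM in α batches 1 to 5, against 0, 0, 0, 0.0327 and 0 CPM in β batches 1 to 5. Each α batch exceeded each β batch for these 3, as the rule that picked them required. Egflam was at least 2107-fold higher in α cells (adjusted p = 5.13e-05), Tspan12 2364-fold higher in α cells (log2 fold change 11.21 ± 0.50 (SE), adjusted p = 9.44e-08) and Adamts18 4704-fold higher (95% counting interval 844 to 185840.0) in α cells (adjusted p = 7.84e-08). Mctp2, a membrane protein with C2 domains, averaged 26.3 ± 7.66 CPM and Fam46d 28.2 ± 7.73 CPM in α cells (SD, n = 5), each with no read in β cells, at least 1185-fold higher (adjusted p = 1.09e-05) and at least 1269-fold higher (adjusted p = 1.64e-05). Galnt13, which starts O-linked glycosylation, had 17.8, 42.7, 101, 24.4 and 37.5 CPM in α batches 1 to 5, against 0, 0.0733, 0.0341, 0 and 0.0484 CPM in β batches 1 to 5. Its α batches varied widely, and it was 2001-fold higher (95% counting interval 684 to 9708) in α cells (adjusted p = 2.88e-06).

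On the β side, Fam151a (chr4:106733889-106748292) had 0 CPM in all 5 α batches, against 51.7, 114, 81.8, 92.0 and 98.9 CPM in β batches 1 to 5. It was at least 3184-fold lower in α cells (adjusted p = 2.89e-06), but 65.7% of its exon bases overlap Acot11 on the other strand, so its reads cannot be told apart from those of Acot11 there. Mreg, or melanoregulin, a protein of organelle traffic, had 0 CPM in all 5 α batches, against 41.7, 69.7, 62.8, 99.8 and 65.7 CPM in β batches 1 to 5. Muc4, a membrane mucin, had 0 CPM in all 5 α batches, against 54.7, 78.6, 102, 27.1 and 43.5 CPM in β batches 1 to 5. Itpkb, a kinase that phosphorylates inositol trisphosphate, had 0 CPM in all 5 α batches, against 36.8, 55.4, 51.3, 39.6 and 49.6 CPM in β batches 1 to 5. No α cell had a read of any of these 3. Mreg was at least 2469.6-fold lower (adjusted p = 3.31e-06), Muc4 at least 2224-fold lower (adjusted p = 2.52e-05) and Itpkb at least 1693-fold lower (adjusted p = 3.36e-06), and Itpkb had reads in 128 of 129 β cells. Asb11, a subunit of ubiquitin ligases, Hspa12a, a distant relative of HSP70, Plk3, a polo-like kinase, and St8sia5, a sialyltransferase, also had no read in α cells. They averaged 34.5 ± 7.94, 27.2 ± 13.0, 25.9 ± 7.19 and 23.4 ± 3.58 CPM in β cells (SD, n = 5; largest adjusted p = 5.59e-05).

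**Figure D4:**
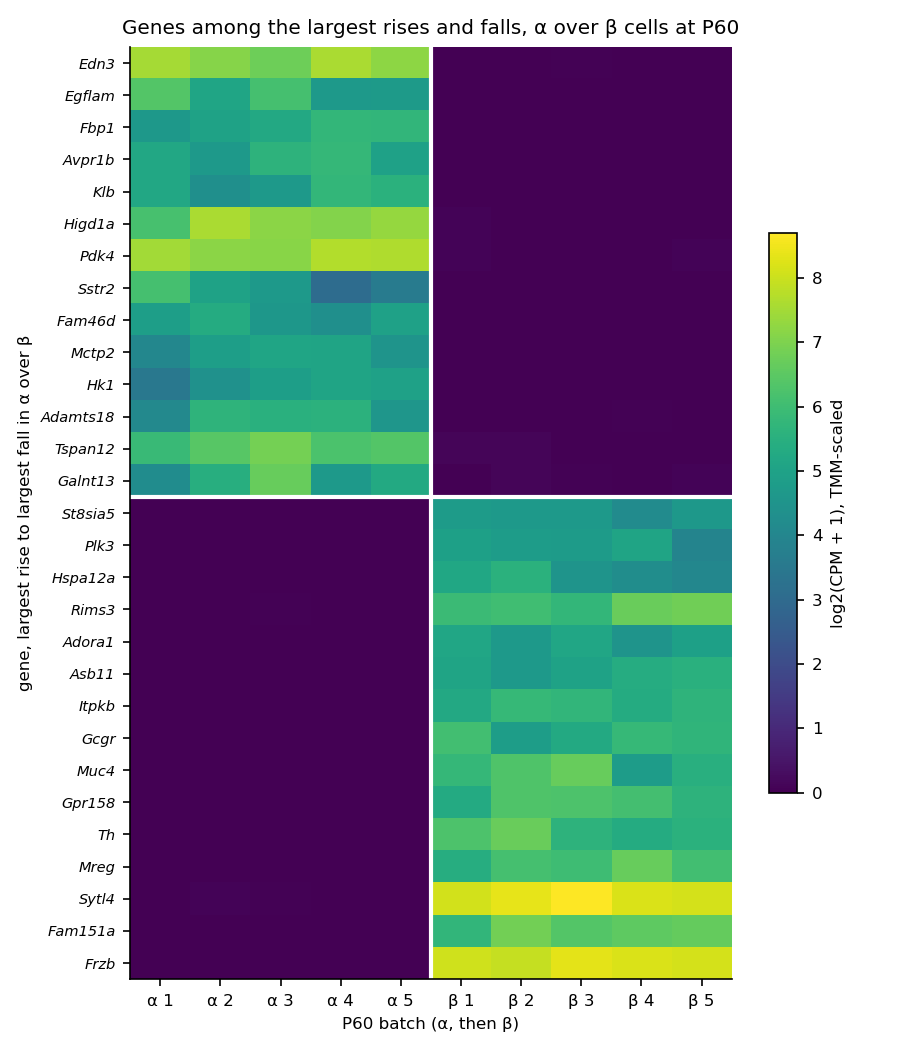
Level, as log2(CPM + 1) with TMM scaling, of genes among the 15 largest rises (upper block) and the 15 largest falls (lower block) by fitted log2 fold change, in α batches 1 to 5 (left) and β batches 1 to 5 (right). The genes of the upper block are at or near 0 in every β batch and those of the lower block in every α batch. Sstr2 and Galnt13 vary visibly between α batches.

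The same contrast was available in fetal cells at E17.5, from the same mouse lines (65 α cells in 4 batches and 57 β cells in 3), and the difference between the contrasts was tested in 1 fit over 17 batches. Fetal α batches 1 to 4 held 30, 21, 8 and 6 cells, and only batch 4 was picked by hand. Fetal β batches 1 to 3 held 5, 31 and 21 cells, and only batch 3 was FACS-sorted. Collection method was thus uneven between the fetal cell types, and it was a covariate in the fit. A difference below is the log2 fold change at P60 minus that at E17.5. At E17.5, 652 of 15798 genes tested (4.13%) were higher and 817 (5.17%) lower in α cells. The α over β difference was greater at P60 than at E17.5 for 338 genes (2.14%) and lower for 306 (1.94%), together 4.08%. Of the 982 genes higher in α cells at P60, 259 had the same call at E17.5, 21 the opposite call and 702 no call. For 193 of the 982 the change of the difference itself passed the test as larger at P60, and for 14 as smaller. Of the 1122 lower genes, 393 had the same call, 10 the opposite and 719 none. For 150 of the 1122 the difference was larger at P60 by this test, and for 33 it was smaller. The counts depend on single fetal batches: without β batch 3 of E17.5 they were 191 and 200, without its batch 1 they were 244 and 177, and without α batch 4 they were 214 and 220. Leaving out β batch 3 or α batch 4 left that fetal cell type with a single collection method. The P60 batches are those described above. Where a group had few or no reads the fitted difference is no bound.

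Several α-side genes had reads in both fetal cell types. At E17.5 Higd1a averaged 48.3 ± 5.52 CPM in α batches and 29.5 ± 12.4 CPM in β batches, and the difference was greater at P60 by a log2 value of 12.17 ± 0.64 (SE), adjusted p = 2.29e-08. On the scale of a fit of all 45 batches, over the stages E17.5, P0, P3 and P9, then P15, P18 and last P60, Higd1a in β cells averaged 28.4 ± 12.2, 14.8 ± 4.13, 4.26 ± 2.61, 1.03 ± 1.01, 0 ± 0, 0 ± 0 and 0.0119 ± 0.0267 CPM. In α cells, not collected at P3, it averaged 45.5 ± 5.46, 69.3 ± 29.9, 176 ± 17.8, 155 ± 18.3, 136 ± 11.9 and 164 ± 52.5 CPM (SD between batches). The β level was lower at each listed stage through P15 and the α level was higher at P9 than at E17.5. Fev averaged 52.8 ± 7.44 CPM in α batches and 26.1 ± 12.0 CPM in β batches at E17.5 (difference 9.43 ± 0.72 (SE), adjusted p = 1.63e-06), and in β cells it followed 25.1 ± 11.5, 23.0 ± 8.04, 9.97 ± 9.48, 3.05 ± 3.04, 0.0300 ± 0.0519, 0.809 ± 1.32 and 0.0281 ± 0.0394 CPM over the same 7 stages. Gnas was on the β side at E17.5, with 88.8 ± 18.3 CPM in α batches and 215 ± 32.5 CPM in β batches, and on the α side at P60 (difference 4.36 ± 0.35 (SE), adjusted p = 2.05e-06). Its β level over the stages was 206 ± 29.4, 117 ± 9.05, 46.0 ± 7.49, 38.3 ± 17.9, 15.7 ± 5.11, 12.3 ± 1.05 and 9.88 ± 2.89 CPM and its α level 83.6 ± 17.8, 136 ± 37.6, 105 ± 31.5, 103 ± 59.1, 82.4 ± 3.68 and 86.4 ± 22.9 CPM. Some of these Gnas reads are uncertain at every stage, because of the overlaps with other genes given above. Lpl averaged 40.8 ± 22.6 CPM in α batches and 102 ± 50.8 CPM in β batches at E17.5, with overlapping batches (difference 3.85 ± 0.57 (SE), adjusted p = 0.00125). Its α level over the stages was 38.6 ± 21.8, 162 ± 107, 373 ± 103, 348 ± 151, 425 ± 144 and 562 ± 93.9 CPM, and its β level 97.6 ± 48.1, 159 ± 42.1, 128 ± 30.1, 109 ± 39.1, 76.9 ± 36.7, 59.4 ± 9.30 and 91.4 ± 23.3 CPM.

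On the β side, Th and Muc4 had reads in fetal α cells. Th averaged 10.3 ± 3.57 CPM in α batches and 49.9 ± 22.4 CPM in β batches at E17.5 (difference -11.55 ± 1.01 (SE), adjusted p = 6.03e-05), and Muc4 averaged 13.0 ± 6.07 CPM in α batches and 175 ± 15.1 CPM in β batches (difference -10.13 ± 1.05 (SE), adjusted p = 0.000225). In α cells Muc4 stood at 12.1 ± 5.57, 10.5 ± 9.26, 0 ± 0, 0 ± 0, 0 ± 0 and 0 ± 0 CPM over the same stages without P3, so it had no reads from P9 on. Adora1 was low in both fetal types, at 3.99 ± 5.90 CPM in α batches and 4.31 ± 1.23 CPM in β batches (difference -12.69 ± 2.66 (SE), adjusted p = 0.0188), and in β cells over the 7 stages it stood at 4.13 ± 1.14, 4.56 ± 3.64, 20.8 ± 6.37, 27.2 ± 15.8, 33.3 ± 7.59, 31.5 ± 7.59 and 34.6 ± 7.05 CPM. The Adora1 difference lost its call without any 1 of the 3 fetal β batches. Hspa12a averaged 16.4 ± 6.10 CPM in α batches and 18.5 ± 9.31 CPM in β batches at E17.5, in contrast to the absence of α reads at P60 (difference -12.30 ± 1.12 (SE), adjusted p = 7.38e-05). Elovl5, at 43.5 ± 9.68 CPM in α batches and 50.3 ± 19.7 CPM in β batches, and Il1r1, at 276 ± 62.5 CPM in α batches and 188 ± 54.5 CPM in β batches, did not pass the test at E17.5 and were lower in α cells at P60, with differences of -2.24 ± 0.37 (SE), adjusted p = 0.00265 for Elovl5 and -1.95 ± 0.26 (SE), adjusted p = 0.000497 for Il1r1. A smaller adult difference was found for Resp18, which averaged 549 ± 148 CPM in α batches and 37.5 ± 19.5 CPM in β batches at E17.5 (difference -1.64 ± 0.37 (SE), adjusted p = 0.0188), and for Sytl5, at 69.2 ± 23.3 CPM in α batches and 4.27 ± 3.78 CPM in β batches (difference -2.56 ± 0.61 (SE), adjusted p = 0.0251). For both, the α side was the higher at both stages. Ero1lb (0.12 ± 0.32 (SE), adjusted p = 0.921), Smarca1 (0.07 ± 0.59 (SE), adjusted p = 0.995), Mlxipl (-0.45 ± 0.43 (SE), adjusted p = 0.683) and Atp2a2 (0.22 ± 0.27 (SE), adjusted p = 0.778) had differences between the stages that did not pass the test.

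**Figure D5:**
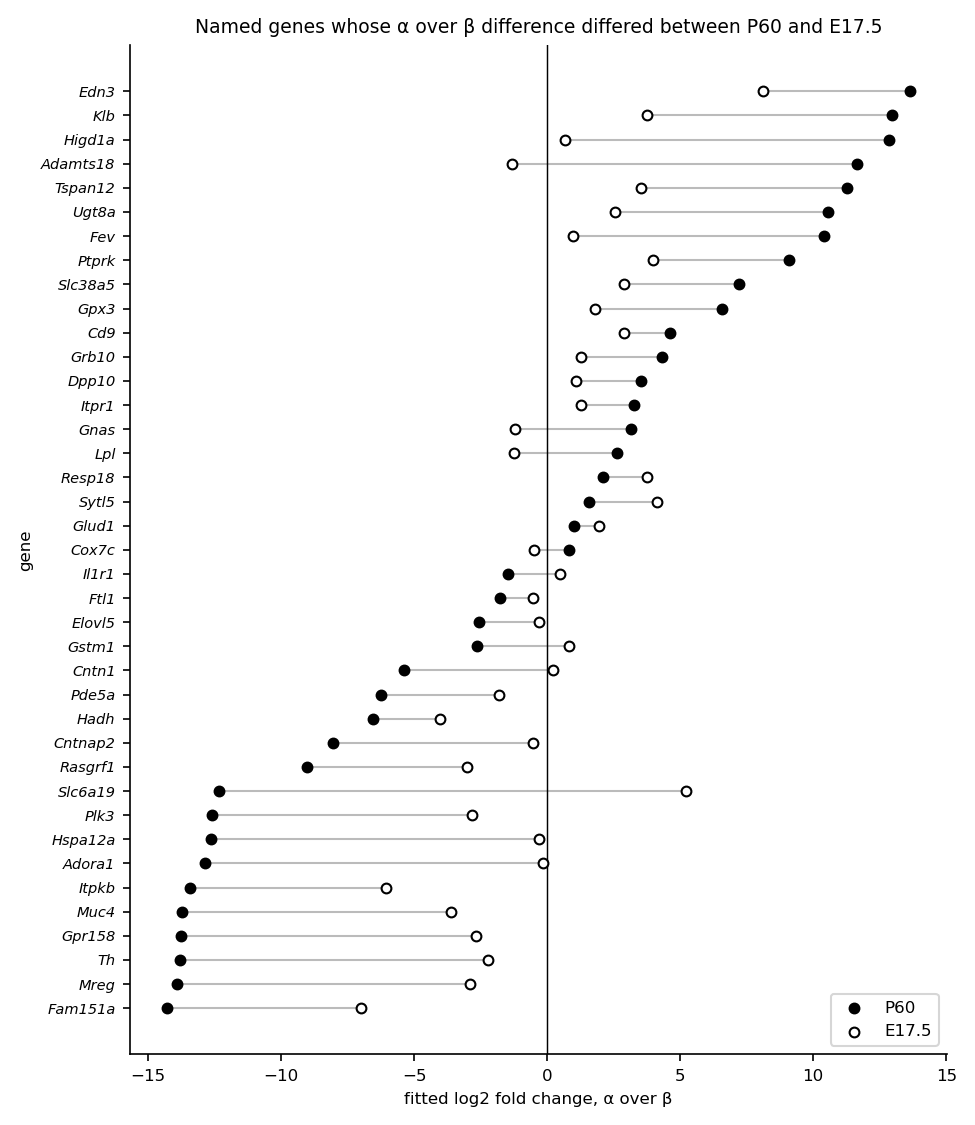
Fitted log2 fold change of α over β cells at P60 (filled) and at E17.5 (open) for the named genes whose difference between the stages had an adjusted p under 0.05, without the genes used to check the labels. The axis is the fitted log2 value, and values beyond about 10 in size rest on groups with few or no reads and are no bounds. Gnas and Lpl lie left of 0 at E17.5 and right of it at P60, as do Adamts18 and Cox7c.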

How the data were processed

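Single cells were sequenced with Smart-seq2, per the labels' protocols, which reads whole transcripts without molecular identifiers or strand. The authors deposited raw read counts per gene and cell (40824 genes and 92 spike-ins) and a table of TPM, in which the authors scaled counts for gene length and depth. The submitters' processing notes list DESeq (1.20.0), HTSeq (0.6.0) and TopHat2 (2.1.0), besides the builds mm10 and GRCm38. Their roles and counting options are not given in the sources used here. Cells were grouped by their labels. The 2 P60 cells labelled with more than 1 hormone were left out, and 51 columns of the single-cell tables in all were not used. No cell columns were identical (0 pairs).

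Counts were summed per batch and tested with edgeR 4.0.16 in R 4.3.3 (TMM, filterByExpr, glmQLFit and glmQLFTest), with the collection method as covariate and only P60 batches in the fit, or 17 batches of P60 and E17.5 for the difference between stages. Calls are Benjamini-Hochberg adjusted p under 0.05. Batch measures were tested by exact two-sided permutation. Tested on simulated data, the P60 fit recovered 32% of genes changed by 1 and 71% of those changed by 2 on the log2 scale (12339 genes), and the test between stages 1% and 25% (15278 genes). At each size 100 genes were changed, with no low genes among them. The data hold many more called genes and genes absent from a cell type, so the rates there may differ. The bounds and ratios use reads pooled over a group. Setting members with 0 to 3 reads in a group to them moved 0 of the 21 list medians noticeably. Alternatives were DESeq2 1.42.0, limma 3.58.1 on log2(TPM + 1) averaged over cells, no filter, all 45 batches, no covariate, batch number as block, no hormone genes, each collection method alone, and each batch left out.

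Named genes are the 15 largest rises and 15 largest falls (at least 20 CPM in the higher group, no overlap) and up to 2 called members per direction of each of 21 lists with the smallest p (at least 10 CPM), without hormones, identity factors, predicted and ribosomal genes; every other gene named was chosen after its values were seen. A few genes that these rules or the counts include are not reported here. The members and lists were chosen with earlier results of these data known. Exon overlaps were looked up for the genes these rules name, and where none stands beside such a gene at most 7.60% of its exon bases overlap another gene. Gene positions are from GENCODE on GRCm38 and promoters from RefSeq. Cell counts with a read use 95% exact limits, and a count of 0 cells is read as up to 3 cells.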

Additional observations from a re-analysis of the deposited data

Results flagged for a closer look

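Of 187 sets of 5 batch values examined, 19 had 1 batch far from the other 4 by Dixon's ratio. In 8 of them the other 4 batches were at 0, so that the ratio is 1 by construction, and the rate of about 1 in 20 that chance gives does not apply to them. Most are genes near 0 in that group. In β cells these were Gcg in batch 3 at 203 CPM, with 0 to 1.32 in the others, Oxtr in batch 3 at 3.31 CPM, Gfra1 in batch 3 at 0.443, Edn3 in batch 3 at 0.0341, Higd1a in batch 1 at 0.0489, Adamts18 in batch 4 at 0.0327 and Ugt8a in batch 5 at 0.0484 CPM. The β cell with most Gcg reads held 0 reads of Oxtr, Edn3 and Gfra1. In α cells they were Grin1 in batch 5 at 5.95 CPM, Cntn1 in batch 4 at 7.12, Kcnip1 in batch 4 at 5.86, Pde5a in batch 2 at 5.90, Cntnap2 in batch 5 at 0.961, Sez6l in batch 1 at 0.966, Pdyn in batch 1 at 0.0386 and Rims3 in batch 3 at 0.0446 CPM. At higher levels, single batches stood apart for Kcnh6 in α batch 1, low at 53.8 CPM, Gnas in β batch 4, high at 12.2, St8sia5 in β batch 4, low at 17.2, and Ins1 in β batch 2, low at 144920.0 CPM.

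The α over β log2 difference differed between P60 and E17.5, by the test of the difference itself, for 40 genes with values in the report or used to check labels. Higher at P60 by a fitted log2 value were Edn3 (5.53), Klb (9.22), Higd1a (12.17), Adamts18 (12.96), Tspan12 (7.73) and Ugt8a (8.01). The same direction held for Fev (9.43), Ptprk (5.12), Slc38a5 (4.32), Gpx3 (4.79), Cd9 (1.71) and Grb10 (3.05). Further such genes were Dpp10 (2.42), Itpr1 (1.99), Gnas (4.36), Lpl (3.85) and Cox7c (1.32). Lower at P60 were Resp18 (-1.64), Sytl5 (-2.56), Glud1 (-0.91), Il1r1 (-1.95), Ftl1 (-1.25) and Elovl5 (-2.24). Further falls in the difference were those of Gstm1 (-3.47), Cntn1 (-5.57), Pde5a (-4.42), Hadh (-2.51), Cntnap2 (-7.52) and Rasgrf1 (-5.98). Also lower were Ins1 (-3.02), Slc6a19 (-17.55), Plk3 (-9.77), Hspa12a (-12.30), Adora1 (-12.69) and Itpkb (-7.36). Lower as well were Muc4 (-10.13), Gpr158 (-11.08), Th (-11.55), Mreg (-11.04) and Fam151a (-7.30). Slc6a19 had 36 reads in fetal α cells and 0 in fetal β cells, and lost its call without α batch 2 of E17.5, at -11.80.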

How the results depend on the processing

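No direction turned under the alternative fits and settings that gave a value for the 104 named genes and the batch measures (DESeq2 gave no adjusted p for 2 named genes, Gcg and Gria3, and 3 hormone genes were left out in the fit without hormones). The mean deposited TPM, which was not among these fits, did go the other way for Slc6a6 and Tapbp, as given below. The number of genes higher and lower in α cells at P60 was 1652 and 1845 with DESeq2, which tested 22597 genes, 153 and 209 in sorted batches alone (2 against 2), 580 and 691 in picked batches alone (3 against 3), and 2346 and 1157 with limma on log2(TPM + 1); without 1 batch it was 812 to 911 and 895 to 1129. The difference between stages gave 712 higher and 865 lower genes with DESeq2, and 191 to 324 and 177 to 320 without 1 batch. The hormone share differed by -14.2 points in sorted batches (exact p = 0.333) and -10.1 in picked ones (exact p = 0.1), each the smallest p such a design allows, and by -13.4 to -10.3 without 1 batch. Genes detected differed by -1075 (exact p = 0.333) and -861 (exact p = 0.1), and by -1038 to -835 without 1 batch. Same-numbered batches did not deviate together (correlations -0.0354 to 0.0628, with 3 of 5 numbers best matched by their own), so the replicate block, with 815 higher and 1039 lower genes, was not taken as a pairing. Of the named genes 25 lost their call in sorted and 3 in picked batches alone, 4 on the TPM scale (Slc6a6, Tapbp and Pkm among them), and Tapbp and Chrnb2 with the block. The mean deposited TPM, without the log, was 30.5 in α and 28.0 in β cells for Slc6a6 and 54.7 in α and 52.0 in β cells for Tapbp, opposite to their direction. On this scale, which has no TMM scaling, other named genes also stood further to the α side than in CPM. Pkm was at 174 in α and 205 in β cells, against 269 and 587 CPM. Cox7c was at 147 in α and 44.4 in β cells, against 67.2 and 37.1 CPM. The size of a small fold thus depends on the scaling. The causes were not tested. Among stage differences, those of Glud1, Dpp10, Pde5a, Ins1 and Edn3 lost their call under 4 or more alternatives. No alternative fit replaces animals, which the labels do not name, and genes with few reads are limited by depth.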
